A study of Homo sapiens with 2 samples.

Results

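Nucleotide excision repair (NER) is represented here by 10 genes, XPA, XPC, DDB1, DDB2, ERCC1, ERCC2, ERCC3, ERCC4, ERCC5 and ERCC6, out of 20033 protein-coding genes on chromosomes 1 to 22, X and Y of GENCODE 44. They were chosen by name, under a rule that uses no measured value, when earlier results of these data were known. Accessible chromatin, which the Tn5 transposase can cut and tag, was mapped by ATAC-seq in 293T cells, an established human line derived from embryonic kidney that expresses SV40 large T antigen. The 2 groups are 1 library from control cells, labelled PBS and described as receiving fresh medium without a supplement, and 1 library from cells given 0.5 mM methylglyoxal (MGO) for 12 h, each made from 50000 cells. There were 36142 control peaks and 22884 MGO peaks. The lists hold no reads per peak, so the counting error of a peak is unknown. Both lists carry the number 2 after the condition in their peak names and the methods speak of consensus peaks, so other libraries may have been made, but 1 per condition was analysed here and differences have no replicate check and were not tested. In a bulk library, fewer cells with an open promoter and a less open promoter in each cell cannot be told apart. Of 5 genes taken as markers of 293T cells, 4 (PAX2, VIM, KRT8 and KRT18) had a peak at a transcription start site (TSS) in both libraries and LHX1 had none.

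NER removes bulky lesions that distort the double helix. In global genome repair, XPC and the DDB1-DDB2 complex find the damage, and in transcription-coupled repair a stalled RNA polymerase recruits ERCC6 (CSB). Both branches then use TFIIH, whose helicases ERCC2 (XPD) and ERCC3 (XPB) open the DNA, XPA, which helps to verify the lesion, and the nucleases ERCC1-ERCC4 (XPF) and ERCC5 (XPG), which cut on either side of it. MGO is a by-product of glycolysis that reacts with proteins and also with guanine in DNA, and whether the promoters of these repair genes stayed accessible under MGO is the question asked of the 2 peak lists.

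All 10 genes had a TSS peak in control and in MGO, and at each gene the 2 peaks overlapped. A TSS peak is a deposited peak that holds a TSS of any transcript of the gene or lies within 1000 bp of one. Across all protein-coding genes, 67.3% had a TSS peak in control, 63.9% in MGO and 62.6% in both, and of the genes with a control TSS peak 93.0% also had one in MGO. The 10 genes have a median of 16.5 TSSs against 5 over all genes, and so more windows in which a peak can fall. With only the TSS of the Ensembl canonical transcript, all 10 again had a peak in both lists, against 59.1% of all genes. The strongest TSS peak by −log10 p covered the canonical TSS at all 10 genes in both libraries. Each of these 20 peaks had a −log10 q above 2, the threshold of 0.01 in the study's methods, as both peaks did at 90.1% of all genes with a TSS peak in both lists. At a −log10 q of at least 5, 7 of the 10 genes kept a control TSS peak (43.0% of all genes), 4 an MGO TSS peak (31.5%) and 3 an overlapping pair (29.7%).

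**Figure D1:**
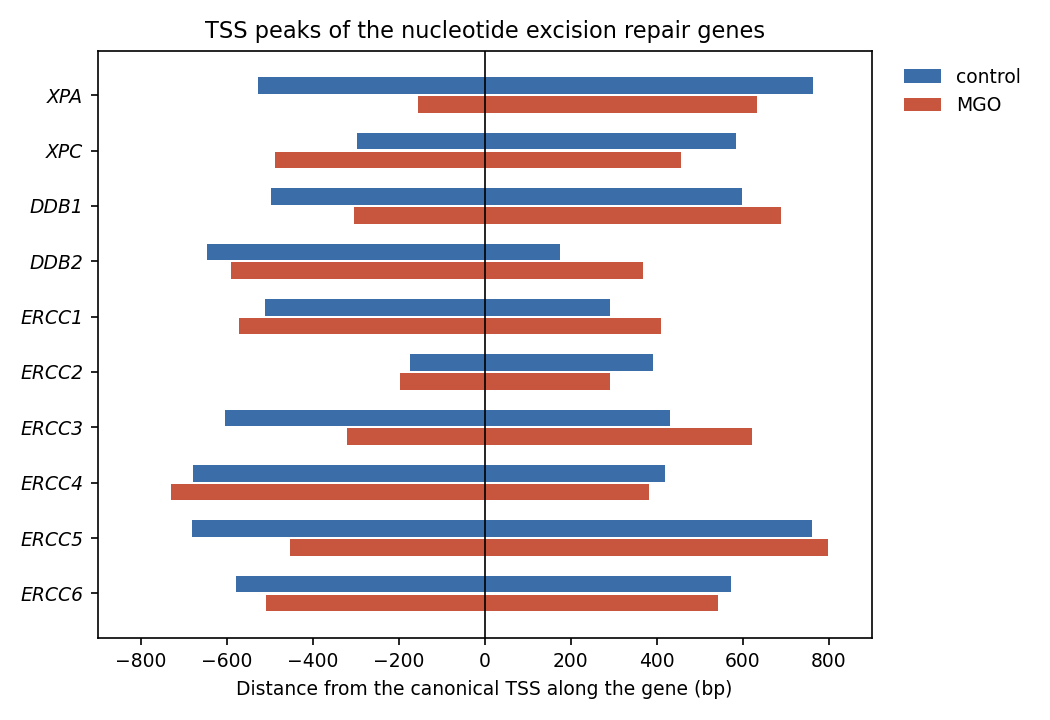
TSS peak of each gene in control (blue) and MGO (red), drawn along the direction of transcription as distance in bp from the canonical TSS (black line). Every bar crosses the TSS, and the MGO bar of XPA ends 155 bp upstream where the control bar reaches 527 bp.

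The peaks were of ordinary strength and changed in the same direction as most promoters. Fold enrichment, the authors' mean over the peak of signal against the local background, had a median of 3.80 in control and 3.41 in MGO for the 10 genes, beside 3.62 and 3.32 over all genes. It was lower in MGO at 8 of the 10 genes, close to the 75.6% of all 12545 genes with a TSS peak in both lists. The median MGO to control ratio of fold enrichment was 0.865 for the 10 genes and 0.918 for all genes. The −log10 p was also lower at 8 of 10, beside 78.0% of all genes. The MGO peak was narrower at 6 of 10, beside 66.5%, with a median width ratio of 0.910 against 0.908. The 2 exceptions in fold enrichment were XPA and ERCC1.

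**Figure D2:**
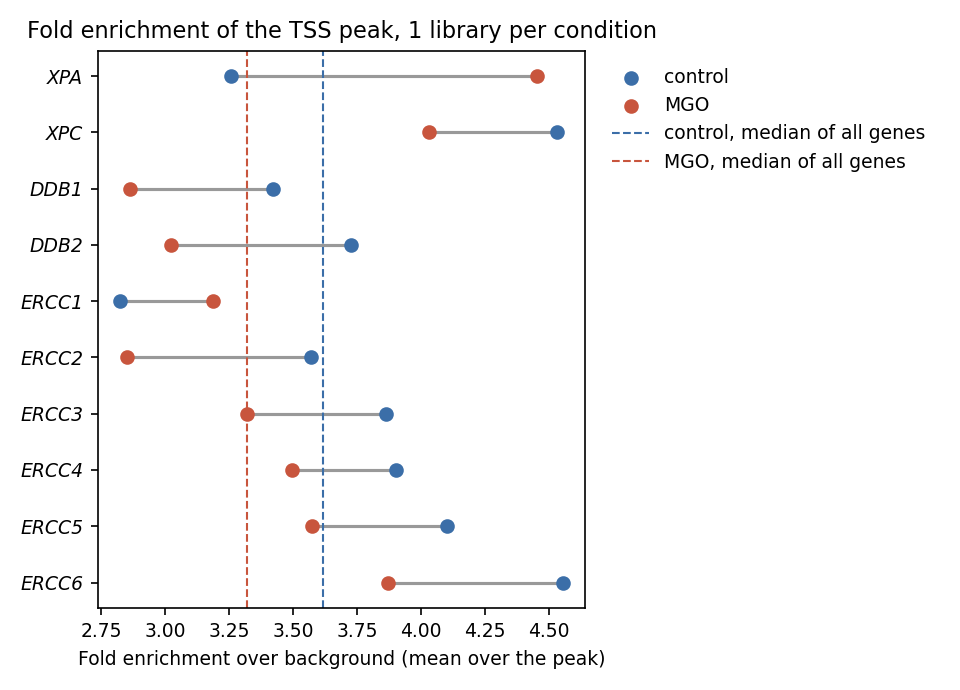
Fold enrichment of the TSS peak (horizontal axis, mean over the peak) for each gene in the control (blue) and MGO (red) library, with the medians of all protein-coding genes as dashed lines. MGO lies to the left of control at 8 genes and to the right at XPA and ERCC1.

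XPA, the scaffold protein that binds the opened DNA and TFIIH, had the highest ratio of fold enrichment of the 10 genes and the lowest ratio of width. The gene lies on the minus strand of chromosome 9 from 97674909 to 97697340 (GRCh38, as all coordinates here), with its canonical TSS at 97697340. The control peak ran from 97696577 to 97697867, or 1291 bp, with a fold enrichment of 3.26 and a −log10 p of 6.88. The MGO peak lay wholly inside it, from 97696706 to 97697495, or 790 bp, with a fold enrichment of 4.45 and a −log10 p of 11.7. The ratio of fold enrichment was 1.37, at percentile 99.9 of all genes with a pair, and 16 of the 12545 genes, XPA among them, had a ratio at least as high. The width ratio was 0.612, at percentile 10.9. Because fold enrichment is a mean over the peak, it was also multiplied by the width. On that scale XPA went from 4208 to 3518, a ratio of 0.836, at percentile 50.2 of all genes, whose median was 0.835. The difference in −log10 p, MGO minus control, was at percentile 99.8 of the same genes. A TSS peak that was narrower and higher in fold enrichment under MGO was found at 19.1% of all genes, and XPA was the 1 such gene among the 10.

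The XPA peak reached 527 bp upstream of the TSS in control and 155 bp in MGO, and 763 bp and 634 bp downstream of it. The stretches covered in control only had a GC content of 43.9%, against 68.9% in the stretch shared by both peaks. The bases before the XPA TSS are shown because the MGO edge falls among them. The sequence lies on the minus strand and reads 5′ to 3′ towards the TSS, and matches to the Sp1 motif (GGGCGG, or CCGCCC on the other strand) or to the NRF1 motif (GCGC, any 2 bases, GCGC) are in capitals. The first stretch, chr9:97697496-97697590, was under the control peak only, which reaches beyond it, and the second, chr9:97697341-97697495, was under both peaks and ends at the base before the TSS.
XPA, control peak only: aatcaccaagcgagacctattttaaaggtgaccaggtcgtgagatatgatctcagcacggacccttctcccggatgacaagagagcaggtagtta
XPA, both peaks: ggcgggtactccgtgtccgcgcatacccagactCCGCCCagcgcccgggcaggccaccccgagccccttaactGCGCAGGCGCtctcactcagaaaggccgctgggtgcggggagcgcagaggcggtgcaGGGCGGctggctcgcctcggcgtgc
The 155 bases printed from the part under both peaks have a GC content of 74.2% and hold all 3 matches. The 95 bases printed from the control-only part have 48.4% and no match. Bases further upstream were not searched. At each of the 8 genes of the 10 with at least 50 bp under the control peak alone, that stretch had a lower GC content than the shared one, as at 84.3% of all such genes.

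Among the damage sensors of global genome repair, XPC had the second highest fold enrichment in control and the second highest in MGO of the 10 genes. XPC, which binds the distorted strand opposite a lesion, lies on the minus strand of chromosome 3 from 14145147 to 14178621. Its control peak ran from 14178017 to 14178898 with a fold enrichment of 4.53 and a −log10 p of 17.1. Its MGO peak ran from 14178144 to 14179089 with 4.03 and 11.3. Under MGO the peak lay further upstream, reaching 488 bp before and 457 bp past the TSS, against 297 bp and 584 bp in control, and the 2 peaks shared 755 bp. LSM3, which encodes a protein of RNA processing, starts on the opposite strand 216 bp away, so that both genes share the peak. Beyond the bases between the 2 genes, the upstream side of XPC is the body of LSM3. The bases between the outermost annotated exons of the 2 genes, chr3:14178622-14178816, are printed on the XPC strand because both peaks cover them and both genes start at their ends, with the 1 match to the Sp1 motif in capitals.
XPC to LSM3: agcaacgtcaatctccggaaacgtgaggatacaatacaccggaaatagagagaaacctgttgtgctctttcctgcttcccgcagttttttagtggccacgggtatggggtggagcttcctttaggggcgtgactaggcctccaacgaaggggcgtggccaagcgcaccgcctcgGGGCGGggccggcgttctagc

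DDB1, the adaptor that links DDB2 to the CUL4 ubiquitin ligase, and DDB2, the subunit that contacts ultraviolet damage, both had lower fold enrichment in MGO. At DDB1, on the minus strand of chromosome 11 from 61299451 to 61342596, the control peak from 61332507 to 61333601 had a fold enrichment of 3.42 and the MGO peak from 61332417 to 61333409 had 2.86. The ratio was 0.836 and the overlap 903 bp. The DDB1 peak also covers the start of TKFC, 123 bp away on the opposite strand. At DDB2, on the plus strand of the same chromosome from 47214465 to 47239217, the control peak from 47214329 to 47215148 had 3.73 and the MGO peak from 47214385 to 47215341 had 3.02. The DDB2 ratio of 0.811 was the second lowest of the 10, although the MGO peak was wider, with a width ratio of 1.17 and a gain of 193 bp on the downstream side. At 0.947, fold enrichment times width changed less at DDB2 than fold enrichment alone.

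ERCC6, the translocase that starts transcription-coupled repair, had the highest control fold enrichment of the 10 genes. It lies on the minus strand of chromosome 10 from 49454168 to 49539538. Its control peak from 49538548 to 49539700 had a fold enrichment of 4.56 and a −log10 p of 14.1, and its MGO peak from 49538579 to 49539629 had 3.87 and 9.75. The MGO peak lay inside the control peak, reaching 508 bp upstream and 542 bp downstream of the TSS, against 579 bp and 573 bp. No other peak of either list lay in the 85371 bp of the gene or within 50 kb of one of its TSSs.

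The helicases of TFIIH had lower fold enrichment in MGO. ERCC2, on the minus strand of chromosome 19 from 45349837 to 45370918, had the narrowest TSS peaks of the 10, from 45370182 to 45370746 in control (565 bp) and from 45370283 to 45370770 in MGO (488 bp). Its fold enrichment was 3.57 in control and 2.85 in MGO, and the ratio of 0.798 was the lowest of the 10. ERCC3, on the minus strand of chromosome 2 from 127257290 to 127294166, had a control peak from 127293713 to 127294748 with 3.86 and an MGO peak from 127293523 to 127294463 with 3.32. The ERCC3 peak reached 604 bp upstream of the TSS in control and 319 bp in MGO, and 431 bp and 621 bp downstream. On the upstream side a lncRNA gene (ENSG00000286145) starts on the other strand, 83 bp away.

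The nucleases differed among themselves. ERCC4, the catalytic subunit of the 5′ nuclease, lies on the plus strand of chromosome 16 from 13920138 to 13952348 and had the pair of peaks with the least change in width, a ratio of 1.01. These ran from 13919475 to 13920572 in control, with a fold enrichment of 3.90, and from 13919424 to 13920536 in MGO, with 3.50. They shared 1062 bp, or 96.7% of the control peak. ERCC5, the 3′ nuclease, on the plus strand of chromosome 13 from 102845831 to 102875995, had the widest peaks, 1443 bp from 102845352 to 102846794 in control and 1253 bp from 102845579 to 102846831 in MGO. Its fold enrichment was 4.10 in control and 3.57 in MGO. The readthrough gene BIVM-ERCC5, annotated as a gene of its own, starts at another peak upstream, shared with BIVM and POGLUT2, from 102798714 to 102800843 in control and from 102798785 to 102800781 in MGO.

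ERCC1, the non-catalytic partner of ERCC4, was the 1 gene of the 10 at which width, fold enrichment and −log10 p were all higher in MGO. It lies on the minus strand of chromosome 19 from 45407334 to 45478828. The control peak at its canonical TSS (45423917) ran from 45423626 to 45424427 and was the weakest of the 10, with a fold enrichment of 2.82 and a −log10 p of 5.00. The MGO peak ran from 45423507 to 45424488 with 3.19 and 7.38, and covered the control peak whole. The width ratio was 1.22 and the ratio of fold enrichment 1.13, at percentile 95.1 of all genes, and fold enrichment times width was 2264 in control and 3129 in MGO, a ratio of 1.38, at percentile 95.4. A TSS peak that was both wider and higher in fold enrichment occurred at 5.28% of all genes. ERCC1 also has transcripts that start far upstream. A control peak at such a start from 45450533 to 45451162 had no MGO counterpart, and another from 45478091 to 45478860 overlapped an MGO peak from 45478346 to 45478949. With −log10 q values of 1.99 and 1.72 in control and 1.40 in MGO, these upstream peaks miss the threshold of the methods.

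**Figure D3:**
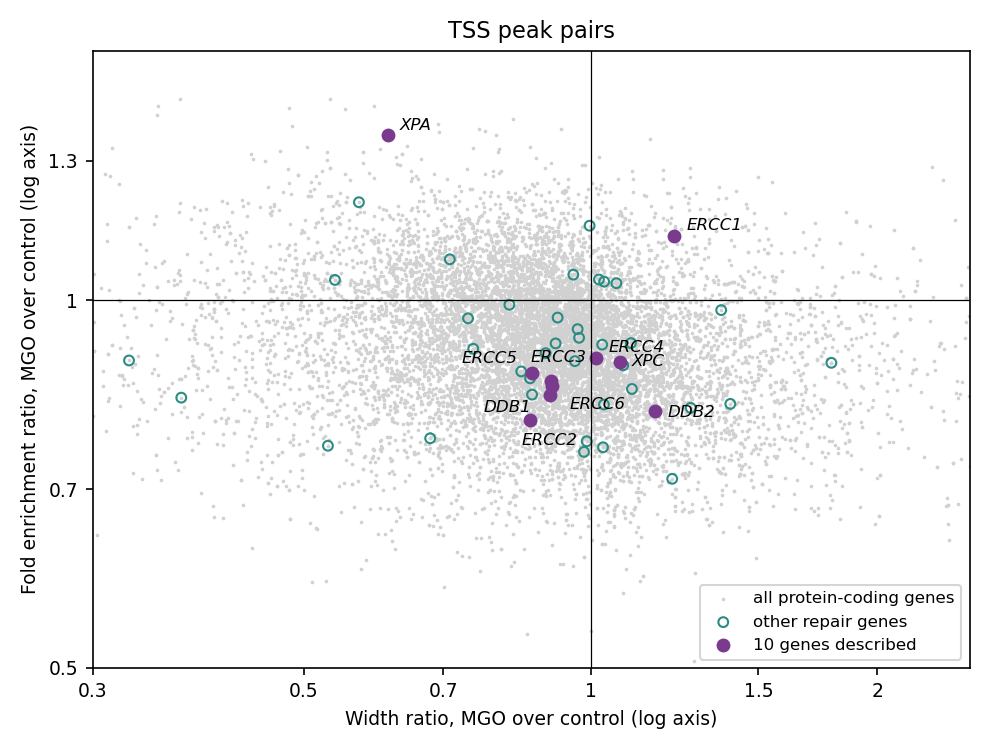
Ratio of MGO to control in peak width (horizontal) and in fold enrichment (vertical), both on log axes, for the TSS peaks of 12545 protein-coding genes (grey, of which 198 lie outside the axes), of the other repair genes (open circles) and of the 10 genes (filled circles). XPA lies at 0.612 and 1.37 near the upper limit of the cloud, ERCC1 at 1.22 and 1.13, and the other 8 below a fold enrichment ratio of 1.

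The edges of the 10 peaks were also compared along the direction of transcription. At either edge, a negative shift means that the MGO peak reached less far out than the control peak. The upstream edge lay closer in under MGO at 6 of 10, beside 68.7% of all genes, with a median shift of −63.5 bp against −65 bp. The downstream edge lay closer in at 5 of 10, beside 57.6%, with medians of 3 bp and −29 bp. Fold enrichment times width was lower in MGO at 9 of 10, all but ERCC1, beside 78.3% of all genes.

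The base composition of the promoters varied among the 10 genes. In the RefSeq promoter sequences (GRCh38.p14, 250 bases before to 50 after each start), which were found for all 10 genes at the canonical TSS and are identical to the genome used here, the median GC content was 62.7%, with a range from 58% at ERCC3 to 74.3% at DDB1, beside 62.3% over 21613 promoters of protein-coding genes. The CpG ratio, observed over that given by base composition, had a median of 0.906 and ranged from 0.445 at ERCC1 to 1.06 at XPC, beside a median of 0.742. Searched on both strands, the Sp1 motif GGGCGG was in 7 of the 10 and in 56.8% of all promoters. The ETS motif CCGGAAG was in 4 of the 10, ERCC1, ERCC3, ERCC4 and ERCC5, and in 12.9% of all. The NRF1 motif, GCGC, any 2 bases and GCGC again, was in XPA, ERCC2 and ERCC6 and in 10.7% of all. No gene of the 10 had both. CCAAT was found at ERCC2 alone (3 matches), beside 34.9% of all promoters, and the CRE (TGAC then GTCA), E2F (TTTN then GCGC), YY1 (AAGATG then GCGGC), AP-1 (TGANTCA) and p53 motifs had no match, beside 2.29%, 2.27%, 1.20%, 6.17% and 0.00463% of all promoters. The NRF1 and E2F motifs share the letters GCGC and can overlap. A match is a description of letters and was not shown to be a bound site.

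The ETS and NRF1 matches are shown with their flanks, 30 bases each on the strand of the gene, because they lie at or just before the start in 5 of these 6 genes, under the TSS peaks of both libraries. Capitals mark the matches, and CTTCCGG is the ETS motif read on the other strand.
ERCC1, ETS, chr19:45423902-45423931: gggccagagaggCCGGAAGtgctgcgagcc
ERCC3, ETS, chr2:127294147-127294176: gggagCTTCCGGattgagCCGGAAGtcccc
ERCC4, ETS, chr16:13920140-13920169: ttcggctgcgacCCGGAAGagcttccatgg
ERCC5, ETS, chr13:102846020-102846049: ggacctgtctttCTTCCGGgaggcggtgac
ERCC2, NRF1, chr19:45370691-45370720: gcttttccgtGCGCACGCGCagtatcccga
ERCC6, NRF1, chr10:49539110-49539139: gctgagccagGCGCATGCGCcacgggcctc
Counted with the TSS base as 0, the ETS match runs from −2 to 4 at ERCC1 and at ERCC4 and from 0 to 6 at ERCC5. ERCC3 has matches from −27 to −21 and from −14 to −8. The NRF1 match runs from −8 to 1 at ERCC6 and from −137 to −128 at ERCC2. Of the 4 genes with an ETS match, fold enrichment was lower in MGO at ERCC3, ERCC4 and ERCC5 and higher at ERCC1. Of the 3 with an NRF1 match, it was lower at ERCC2 and ERCC6 and higher at XPA.

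Within 50 kb of a TSS of the 10 genes lay 38 different control peaks and 28 MGO peaks. ERCC1 and ERCC2 are neighbours on chromosome 19 and share peaks, so that sums over the genes are larger, at 40 and 30. MGO peaks were fewer than control peaks around 7 genes and equal in number around ERCC3, ERCC4 and ERCC6. They were fewer around 47.5% of all protein-coding genes, those without a control peak included, with medians of 3 control and 2 MGO peaks per gene. An MGO peak overlapped 28 of the 38 control peaks, a share of 73.7% (58.0 to 85.0%, the 95% Wilson interval, which covers counting error only), beside 59.1% of the 25143 control peaks within 50 kb of any protein-coding TSS. Such an interval treats peaks as independent, although 12 of these control peaks lay around ERCC1 alone, and it measures no spread between libraries. An MGO peak overlapped 11 of the 12 control peaks at a TSS of the 10 genes and 14 of the 18 at the TSS of another protein-coding or lncRNA gene, beside 86.1% of all TSS peaks near protein-coding genes. Of 8 distal ones 3 were overlapped (37.5%, interval 13.7 to 69.4%), beside 23.9% of distal control peaks near protein-coding genes. The control peaks covered 35344 bp and the MGO peaks 31407 bp.

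**Figure D4:**
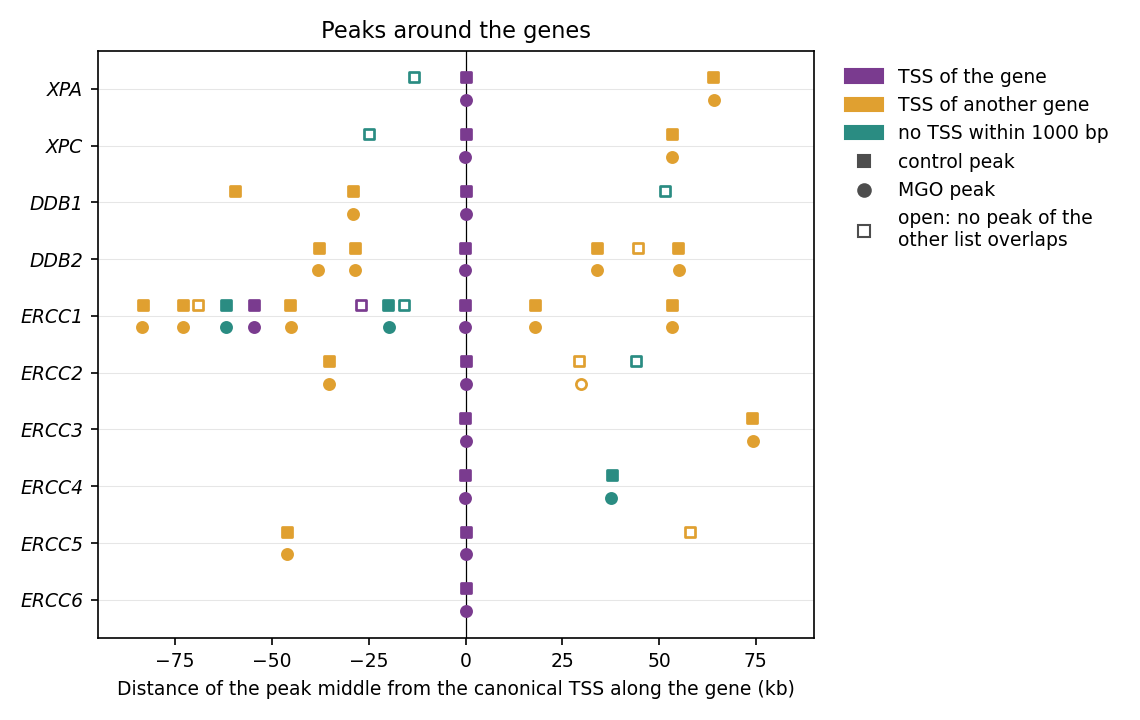
Middle of each peak within 50 kb of a TSS or over the body of the 10 genes, in kb from the canonical TSS along the direction of transcription, for control (squares) and MGO (circles), coloured by whether a TSS of the gene (purple), of another gene (orange) or none (green) lies within 1000 bp. Open symbols have no overlapping peak in the other list, 10 in control and 1 in MGO. Peaks beyond 50 kb are near an alternative TSS.

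The strongest neighbours by −log10 p outside the TSS peaks of the 10 genes were promoters of other genes, and these were retained. In control they were the peak at CHCHD4 and TMEM43 near XPC (chromosome 3, 14124394 to 14125973, −log10 p 16.1), that at TSTD2 and NCBP1 near XPA (chromosome 9, 97632664 to 97634052, 13.4) and that at MADD near DDB2 (chromosome 11, 47269157 to 47270550, 12.7). In MGO they were those at TSTD2 and NCBP1 (97632478 to 97633924, 10.7), at CHCHD4 and TMEM43 (14124420 to 14126077, 10.5) and at CYB561A3 and TMEM138 near DDB1 (chromosome 11, 61361668 to 61362803, 8.57). The MGO peak at MADD, from 47269148 to 47270935, had a −log10 p of 5.79. Its fold enrichment was 2.67, against 3.65 in control.

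Among the 10 control peaks that no MGO peak overlapped, 9 had a −log10 p under the control median of 5.15, and the peak upstream of XPC was above it. Near all protein-coding genes, 80.7% of such peaks were under that median and 42.6% passed the threshold of the methods. Of these 10, 4 passed it, all of them distal. They were an intronic peak of the lncRNA gene PTCSC2 upstream of XPA (97710388 to 97711093, −log10 q 2.20), an intergenic peak upstream of XPC (14203394 to 14203705, 3.08), an intronic peak of VWCE downstream of DDB1 (61281106 to 61281971, 2.61) and an intergenic peak downstream of ERCC2 (45326199 to 45326613, 2.41). A single MGO peak near the 10 genes overlapped no control peak, beside 14.6% of MGO peaks within 50 kb of all protein-coding genes. It lay at the start of KLC3, downstream of ERCC2, from 45340623 to 45341026 with a −log10 q of 1.96, and only 37 bases separated it from a control peak from 45341064 to 45341645. The 3 distal sites retained were in an intron of ERCC1 (45443666 to 45444087 in control and 45443124 to 45444347 in MGO), over a coding exon of RTN2 (45485165 to 45486317 and 45485537 to 45485886) and downstream of ERCC4 (13957712 to 13958019 and 13957464 to 13958004). In the intron of ERCC1 fold enrichment was 2.44 in control, where the −log10 q of 1.15 misses the threshold, and 2.68 in MGO. The intergenic site downstream of ERCC4 had a higher fold enrichment in MGO, 3.95 against 3.18, and that over RTN2 a lower one, 3.01 against 3.82.

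Inside the gene bodies, 9 of the 10 genes had no control peak apart from those at their own TSSs, beside 71.2% of all genes with a control TSS peak. ERCC1 had 6 control peaks over its body, 3 of them away from its own TSSs. An intronic one from 45439579 to 45439985 overlapped no MGO peak, and its −log10 q of 1.95 misses the threshold of the methods. Another of the 3, from 45468897 to 45469860, is at the promoter of FOSB, an AP-1 transcription factor gene that lies within the long annotated body of ERCC1. The MGO peak there was wider and flatter, 2446 bp from 45467812 to 45470257 with a fold enrichment of 2.27, against 964 bp and 3.44 in control, and its −log10 q of 1.86 misses the threshold of the methods, which the control peak passed with 5.46.

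Most of the rest of the pathway also had peaks at its start sites. Of 39 further NER genes (cofactors of damage recognition, the CUL4 ubiquitin ligase, the other TFIIH subunits, RPA, and the factors of gap filling and ligation), 38 had a TSS peak in control and 37 in MGO, beside 67.3% and 63.9% of all genes, and all 37 pairs overlapped. These genes have a median of 11 TSSs against 5 over all genes, and so more windows. With 1 TSS per gene, 37 had a peak in control and 36 in MGO, where 59.1% of all genes had one in both lists. Fold enrichment was lower in MGO at 29 of the 37 pairs (75.6% of all genes) and −log10 p at 30 (78.0%), with a median ratio of fold enrichment of 0.905, and the MGO peak was narrower at 23 (66.5%). All 7 recognition genes, all 3 RPA subunits, all 15 genes of gap filling and all 3 genes of ligation had a TSS peak in both lists. The 3 subunits that build the ligase around DDB1, CUL4A, CUL4B and RBX1, had higher fold enrichment in narrower peaks in MGO, as 19.1% of all genes did, and were singled out after their values were seen. The values were 3.29 and 3.55 in control and MGO for CUL4A, 3.86 and 4.05 for CUL4B and 3.46 and 3.99 for RBX1. The RBX1 peak was barely narrower, at 1131 bp in MGO against 1134 bp in control. The −log10 p of CUL4B was lower in MGO, 14.5 against 17.3. Multiplied by width, the ratios were 0.768 for CUL4A, 1.01 for CUL4B and 1.15 for RBX1. DDB1 itself was lower, with a ratio of 0.836 in fold enrichment.

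The exceptions were in TFIIH. CDK7, the kinase of TFIIH, had a control peak with a fold enrichment of 4.52 and a −log10 q of 6.72 and no MGO peak within 1000 bp of a TSS. A TSS peak in control and none in MGO was found at 4.72% of all protein-coding genes. Of the genes with a control TSS peak, 93.0% also had one in MGO. GTF2H4, a core subunit, had no TSS peak in either list, and no peak of either list lay within 100 kb of the gene. Among pairs, the lowest width ratios were those of RFC4 (0.328), a subunit of the clamp loader, POLD4 (0.372), a subunit of DNA polymerase delta, and GTF2H3 (0.530), and the highest those of GTF2H2 (1.37), GTF2H1 (1.40) and XAB2 (1.79), which binds XPA. The ratio of XAB2 compares largely different intervals, since its peaks shared 55 bp, or 11.8% of the control peak. The peaks of GTF2H2 and XAB2 had −log10 q values under 2 in both lists, as did the MGO peaks of POLD4 and GTF2H3. GTF2H2 has near-identical copies in the genome, and reads with several matches had been removed, so its peak is uncertain.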

How the data were processed

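ATAC-seq peak lists of 1 control and 1 MGO library of 293T cells were used as deposited. Per the paper's methods and the labels, the authors mapped reads to GRCh38.p12 with BWA-MEM 0.7.15, used Picard to remove reads that were mitochondrial or mapped to several places, subsampled reads to equal depth and called broad peaks per sample with MACS2 outside blacklisted regions. Each deposited peak carries its fold enrichment over background, which is a ratio, p and q as −log10 values and a score (not used). All deposited peaks were kept, down to q values of 0.0986 in control and 0.0988 in MGO, and 0 ran past the end of a reference sequence. Genes and TSSs were those of chromosomes 1 to 22, X and Y, so peaks on alternate contigs entered no gene's values.

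TSSs were transcript starts of GENCODE 44. TSS peaks lay within 1000 bp of a TSS, overlap counted from 1 bp, and in each gene the TSS peak of highest −log10 p was compared. No test was made between conditions. The text names the 10 genes with their peaks at TSSs and over gene bodies, the 3 strongest neighbouring peaks per list, unshared MGO peaks, further NER genes without a TSS peak and those of the 3 lowest and 3 highest width ratios. Other genes named were chosen after their values were seen. The genes, lists and motifs were chosen with earlier results of these data known. Tools were GENCODE 44, Python 3.11.15, pandas 2.3.3, numpy 2.4.6, scipy 1.17.1 and matplotlib 3.10.9. Promoter sequences came from RefSeq (GRCh38.p14). The code was tested on simulated data, and overlaps were checked against bedtools. Markers of other tissues are not reported here.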

Additional observations from a re-analysis of the deposited data

How the results depend on the processing

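No paired analysis was possible because there was a single library of each kind and no result comes from a test. Of 75 recomputed values, 54 stayed within 1.5 times (counts), within the Wilson interval (the retained share) or equal to 3 digits (median ratios). These include those for a −log10 q of at least 2, overlaps of at least 50%, TSS windows of 500 and 2000 bp, 1 TSS per gene and distances of 25 and 100 kb. Some of the 54 could not change. The TSS peaks compared at the 10 genes cover the canonical TSS and pass a −log10 q of 2 in both libraries. A −log10 q of at least 2, the 500 bp window and 1 TSS per gene therefore keep the same pairs and the same median ratios. With the 2000 bp window the counts of these genes could not fall. For the TSS peaks of the 10 genes, such repeats are no check of stability.

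With a −log10 q of at least 5, 7 of the 10 genes had a control TSS peak, 4 an MGO TSS peak and 3 an overlapping pair, the peaks within 50 kb were 16 in control and 7 in MGO with 37.5% of control peaks retained, the median ratios over 3 pairs were 0.912 for width and 0.871 for fold enrichment, and 25 and 20 of the further NER genes had a control and an MGO TSS peak. With a fold enrichment of at least 4 the same values were 3 genes in control, 2 in MGO and 1 pair, 4 and 2 peaks, 25% retained, and 16 and 9 further genes. The 1 pair left, that of XPC, gave a width ratio of 1.07, which turns the direction, and a fold enrichment ratio of 0.890. These settings remove peaks by construction. Shares over all genes are not given for the peaks within 50 kb at either setting. They are also not given for TSS peaks at a fold enrichment of at least 4, so those counts have no background. With equal numbers of peaks, 86.2% of control peaks were retained, since weak control peaks alone are removed. Fold enrichment times width, added after seeing the data, gave a median ratio of 0.808. The authors brought the libraries to equal depth, but reads per peak are not in the lists, so the precision of a single peak is unknown.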

Other observations

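GTF2H4 lies in the major histocompatibility complex on chromosome 6, where few peaks were called in either library. From HLA-F to HLA-DPB1 (29722775 to 33089696), a stretch with 137 protein-coding genes, there were 11 control and 8 MGO peaks. In the next stretch of equal length, up to 36456618 and with 64 protein-coding genes, there were 50 and 38. The lists also hold 59 control and 37 MGO peaks on alternate contigs of chromosome 6. The part that the removal of multi-mapping reads plays in the missing GTF2H4 peak was not tested.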
